A study of Mus musculus with 8 samples.

Results

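Casp8 and Cflar are neighbouring genes that code for an initiator caspase and for its closest regulator. They are 2 of the 779 genes with complete rows in a single-cell count table of mouse stomach glands, and were followed here over the 1388 of 1460 barcodes that held 100 or more unique molecular identifiers (UMIs). The pair was chosen as a gene and its regulator, with earlier results of these data known. All samples had the genotype Atp4bCre; Rosa26NICD; Arid1aflox/flox at 23 weeks of age. In this genotype Cre is driven by the promoter of Atp4b, a proton pump subunit gene of parietal cells. Cre switches on the Notch intracellular domain (NICD) from Rosa26 and deletes the floxed part of Arid1a, a subunit gene of the BAF chromatin remodelling complex. The labels list 8 samples of this 1 genotype, without controls, each as a numbered stomach gland of a mouse. They do not say how many mice the glands came from, so the samples may not be separate animals. The barcodes carry no sample number. The data therefore count as 1 pooled sample, and every comparison below is between sets of barcodes within it.

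Caspase 8 is the protease that starts apoptosis after ligands such as TNF or Fas ligand bind death receptors at the cell surface. The adaptor FADD brings it into a complex, where its molecules pair and cleave each other. The same protease restrains necroptosis, a lytic death that depends on RIPK1 and RIPK3, and in gut epithelium its loss is known to let epithelial cells die in that way. Cflar encodes c-FLIP, a relative of caspase 8 that lacks a working catalytic site and joins the same complexes. Its long form pairs with caspase 8 and limits apoptosis, and Cflar is a known target of NF-kB. The balance of both proteins is known to steer the fate of a cell after a death receptor signal, but messenger RNA counts do not show cleavage, splice forms or protein.

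Both genes lie on chromosome 1 of GRCm38, the assembly named mm10, and are transcribed from the plus strand. In the GENCODE vM21 annotation Cflar spans 58711508 to 58758884 and Casp8 spans 58795374 to 58847503, with 36489 bases between them. The upstream windows of both genes were taken from RefSeq (GRCm38.p6, plus strand) and are shown because the genes are neighbours whose levels are compared barcode by barcode below. Each window is 250 bases long and ends 1 base before a RefSeq start site, and capitals would mark a motif match.
Cflar, chr1:58711241-58711490: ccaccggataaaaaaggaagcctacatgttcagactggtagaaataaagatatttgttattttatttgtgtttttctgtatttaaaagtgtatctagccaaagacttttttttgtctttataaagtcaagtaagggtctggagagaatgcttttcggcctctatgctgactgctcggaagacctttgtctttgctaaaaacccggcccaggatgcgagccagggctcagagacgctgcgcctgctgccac
Casp8, chr1:58802252-58802501: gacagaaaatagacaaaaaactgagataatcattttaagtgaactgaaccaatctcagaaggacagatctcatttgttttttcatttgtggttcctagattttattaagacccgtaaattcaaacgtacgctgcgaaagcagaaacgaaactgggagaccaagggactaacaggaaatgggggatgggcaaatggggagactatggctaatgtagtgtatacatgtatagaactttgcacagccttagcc
The Cflar window overlaps no gene of the annotation. The Casp8 window ends before an inner start site at 58802502 and lies within the gene span of the longer Casp8 transcripts, over no annotated exon. G and C made up 42.8% of the Cflar window and 39.6% of the Casp8 window. Neither window holds GAAANNGAAA, a core of interferon-stimulated response elements, on either strand. Of 32851 windows of this length 2.98% do. The counts do not tell from which start a transcript came.

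Over the barcodes used, the totals ranged from 100 to 1082 UMIs with a median of 286. These are totals over part of chromosome 1 and not library depth. Levels are given as CPM, the UMIs of a gene over all UMIs of the table in the same barcodes times 1000000, with exact Poisson 95% intervals. Ratios of levels and shares of barcodes carry exact binomial 95% intervals. All intervals cover counting error only, and no p-value is given because barcodes are not replicates. Rpl7, Rpl31 and Rpl37a, which encode ribosomal proteins, held 40.3% of the UMIs, so every level moves when these genes move. Markers of parietal, chief, surface mucous and neck cells were not analysed here, so the labelled tissue was not checked against them, and no barcode was given a cell type. Cells had been sorted for high EPCAM. Of the 4 genes of the stromal list with a row, Col3a1, Col5a2 and Des had 1 UMI each and Myl1 had 53, in 14 barcodes.

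Casp8 and Cflar were both expressed at a moderate level and in a minority of barcodes. Casp8 had 693 UMIs, 1576 CPM (1461 to 1698), and at least 1 UMI in 492 barcodes, 35.4% (32.9 to 38.0). Cflar had 536 UMIs, 1219 CPM (1118 to 1327), and at least 1 UMI in 418 barcodes, 30.1% (27.7 to 32.6). By UMIs they ranked 74 and 95 among the 418 genes with any UMI, whose median was 102 UMIs. No cell type that should lack either gene could be named, so the part of these shares that free RNA gives was not tested.

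Most carriers held a single molecule. Casp8 gave 1 UMI in 347 barcodes, 2 in 104, 3 in 30, 4 in 9, 5 in 1 and 7 in 1. Cflar gave 1 UMI in 322 barcodes, 2 in 79, 3 in 15, 5 in 1 and 6 in 1. No few barcodes carried the bulk of either transcript: the 3 richest barcodes held 16 Casp8 UMIs, 2.31% of the gene's total, and 14 Cflar UMIs, 2.61%. The variance across barcodes was 1.14 times that of Poisson counts proportional to the barcode's total for Casp8 and 1.24 times for Cflar. Among 91 other genes of 300 to 1200 UMIs this value ranged from 0.948 to 11.5 with a median of 1.14. Both genes were thus spread over barcodes only slightly more unevenly than Poisson counts, with Casp8 at the middle of comparable genes.

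Counted in UMIs, Cflar stood at 0.773 of Casp8 (0.690 to 0.867). The annotated exons cover 12669 bases for Cflar and 2893 for Casp8, which gives 42.3 UMIs per kb of exon for Cflar and 239.5 for Casp8, a ratio of 0.177. The 10x platform counts each molecule once at a transcript end, so neither scale is a calibrated ratio of molecules, and the ratio is used below only to compare sets of barcodes.

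The ratio was not constant with the barcode's total. Cflar and Casp8 stood at a ratio of 1.08 (0.782 to 1.48) in the 330 barcodes of 100 to under 200 UMIs. It was 1.08 (0.842 to 1.38) in the 405 barcodes of 200 to under 300 UMIs. In the 307 barcodes of 300 to under 400 UMIs it was 0.697 (0.553 to 0.876), and in the 346 barcodes of 400 or more UMIs it was 0.608 (0.502 to 0.734). Cflar and Casp8 UMIs were thus near equal in number in each of the bins below 300 UMIs taken as a whole, and Cflar was outnumbered above.

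This came with lower Cflar levels in deep barcodes. The Cflar level was 1625 CPM (1296 to 2012) at 100 to under 200 UMIs, 1399 (1177 to 1650) at 200 to under 300, 1232 (1030.1 to 1462) at 300 to under 400 and 995 (855 to 1151) at 400 or more. The Casp8 level had no such order: it was 1509 CPM (1193 to 1884), 1299.6 (1087 to 1542), 1768 (1524 to 2040) and 1636 (1455 to 1833) in the same bins. Between the deepest and the shallowest bin Cflar differed by a ratio of 0.612 (0.470 to 0.803) and Casp8 by 1.08 (0.842 to 1.41). The ratio of these ratios was 0.565 (0.388 to 0.823).

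Lower levels in deep barcodes were common in the table. Of 213 genes with 50 or more UMIs in both bins together, 55 (25.8%) were at least 1.5-fold lower in the deep bin and 20 (9.39%) at least 1.5-fold higher. The median ratio was 0.879, and Cflar ranked 169 and Casp8 62 from the highest. Cflar was 1 of those 55 genes. An interval wholly below 1 was found for 75 genes (35.2%), Cflar among them, and an interval wholly above 1 for 30 (14.1%). Among barcodes without Mcm3 the deep to shallow ratio of Cflar was 0.671 (0.502 to 0.902), and among barcodes poor in Gsta3 it was 0.505 (0.359 to 0.714). With each barcode thinned to 100 UMIs it was 0.642 (0.400 to 1.02), an interval that includes 1, and a Cflar UMI was left in 8.96% of deep and 14.2% of shallow barcodes, against 38.4% and 22.7% before thinning. Ptma, which encodes prothymosin alpha, took 11.0% of UMIs in the deep bin and 7.33% in the shallow one. The part of composition and depth in the Cflar difference was not tested.

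**Figure D1:**
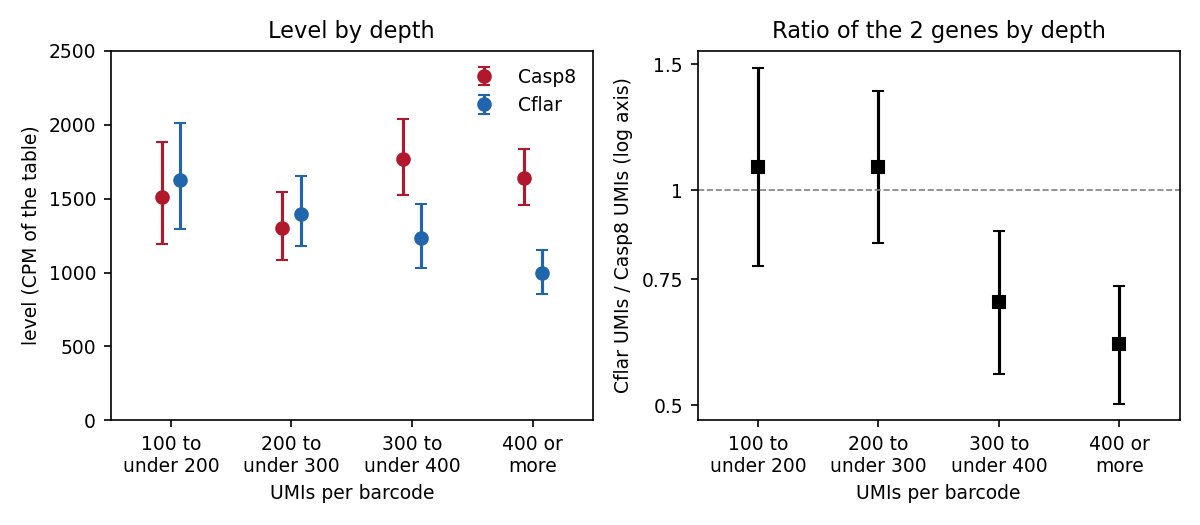
Left, level of Casp8 (red) and Cflar (blue) in CPM of the table, and right, Cflar UMIs over Casp8 UMIs on a log axis, in 4 classes of barcodes by total UMIs. Points are sums over all barcodes of a class and bars are exact 95% intervals for counting error. Cflar goes from 1625 to 995 CPM and the ratio from 1.08 to 0.608.

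Both transcripts were found in the same barcode about as often as their separate shares give. Over the barcodes used, 164 held both genes, 328 Casp8 alone, 254 Cflar alone and 642 neither. Without regard to depth the product of the shares gives 148.2 barcodes with both, and the observed number is 1.11 times that. Barcodes with Casp8 were deeper than those without (median 353 against 261 UMIs), so the comparison was made within depth bins. Summed over the 4 bins the product of the shares gives 158.3 barcodes, and the observed number was 1.04 times that, with a Mantel-Haenszel odds ratio of 1.10 over the bins.

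In the bin of 100 to under 200 UMIs a Cflar UMI was present in 24.6% (15.1 to 36.5) of 69 barcodes with Casp8 and in 22.2% (17.3 to 27.8) of 261 without. At 200 to under 300 UMIs the shares were 25.7% (17.7 to 35.2) and 28.3% (23.3 to 33.8). At 300 to under 400 UMIs they were 33.8% (25.9 to 42.5) and 30.5% (23.7 to 37.9). At 400 or more UMIs they were 40.5% (33.4 to 48.0) of 185 barcodes and 36.0% (28.6 to 44.0) of 161. In each bin the intervals overlapped, and the sign of the difference was not the same in all bins, so no excess or lack of barcodes with both was detectable at this depth.

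The level of either gene also varied little with the UMIs of the other. Casp8 stood at 1593 CPM (1452 to 1744) in barcodes with no Cflar UMI, 1463 (1241 to 1713) with 1 and 1778 (1381 to 2254) with 2 or more, with Cflar left out of the total. Cflar stood at 1253 CPM (1119 to 1398) with no Casp8 UMI, 1237 (1045 to 1454) with 1 and 1066 (829 to 1349) with 2 or more, with Casp8 left out of the total. All 3 intervals overlapped for each gene. Of the barcodes with exactly 2 UMIs of the pair, 91 held 1 of each, 69 held Casp8 alone and 39 Cflar alone.

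**Figure D2:**
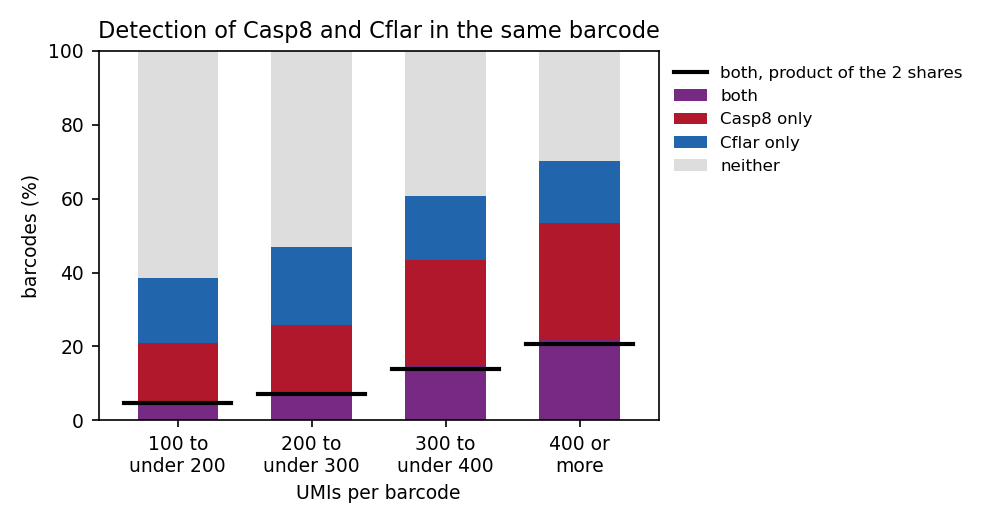
Share of barcodes (%) in which both genes, Casp8 alone, Cflar alone or neither gave a UMI, in 4 classes of total UMIs. The black line is the share with both that the product of the 2 separate shares gives. It lies close to the top of the purple bar in every class, and the observed number over the 4 classes was 1.04 times the product.

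Gsta3 encodes a glutathione transferase that conjugates glutathione to reactive compounds. Barcodes in which it took 3% or more of the UMIs numbered 157 (median 308 UMIs), and those under 1% numbered 812 (median 270.5). Casp8 was higher in the Gsta3-rich barcodes and Cflar was not detectably different. Casp8 reached 2130.5 CPM from 116 UMIs against 1461 CPM from 354 UMIs, a ratio of 1.46 (1.17 to 1.80). Cflar was at 1194 CPM from 65 UMIs against 1176 CPM from 285, a ratio of 1.02 (0.763 to 1.33). A Casp8 UMI was found in 51.6% of rich and 31.3% of poor barcodes, and with all barcodes thinned to 100 UMIs in 18.5% (12.7 to 25.4) and 12.8% (10.6 to 15.3).

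With all genes in the totals, neither gene passed 1.5-fold in this split. There 15 of 222 genes (6.76%) did so upward and 22 (9.91%) downward, with Gsta3 itself not counted among them. Casp8 ranked 21 of the 222 by its ratio and Cflar 106, and the median ratio was 1.00 with quartiles of 0.860 and 1.16. An interval wholly above 1 was found for 31 genes (14%), Casp8 among them, and an interval wholly below 1 for 26 (11.7%). Gsta3 takes UMIs from all other genes in the rich barcodes. With Gsta3 left out of the totals the Casp8 ratio was 1.53 (1.23 to 1.89) and the Cflar ratio 1.06 (0.799 to 1.40). Whether Casp8 passed 1.5-fold thus depended on the denominator, and the other genes were not counted again with Gsta3 alone left out.

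The Casp8 ratio was above 1 in each depth bin. It was 1.25 (0.440 to 2.90) at 100 to under 200 UMIs, where the rich barcodes gave 6 UMIs, 1.89 (1.16 to 2.99) at 200 to under 300, 1.47 (0.951 to 2.21) at 300 to under 400 and 1.32 (0.937 to 1.83) at 400 or more. Combined over the bins it was 1.46. The corresponding Cflar ratios ran from 0.727 to 1.26, each with an interval that includes 1.

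Graded by the Gsta3 share, the Casp8 level was alike up to 3% and higher beyond. It was 1525 CPM (1284 to 1797) in 380 barcodes without Gsta3, 1420.4 (1236 to 1625) in 432 barcodes under 1%, and 1560.4 (1362 to 1779) in 419 barcodes of 1 to 3%. It was 2085 (1631 to 2626) in 99 barcodes of 3 to 5% and 2209 (1605 to 2966) in 58 barcodes of 5% or more. Just outside and inside the 3% limit, Casp8 was at 1575 CPM in 150 barcodes of 2 to 3% and at 2064 in 61 barcodes of 3 to 4%, and Cflar at 1117 and 878. Cflar showed no order along the Gsta3 share: its level was 1493 CPM (1255 to 1762) without Gsta3, 978 (826 to 1150.4) under 1%, 1301 (1121 to 1503) at 1 to 3%, 1158 (828 to 1577) at 3 to 5% and 1255 (812 to 1853) beyond. The barcodes without Gsta3 were shallower, with a median of 212 UMIs against 321.5 under 1%. The part of depth in the Cflar step between these classes was not tested.

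The Cflar to Casp8 ratio was therefore lower in Gsta3-rich barcodes, at 0.560 (0.407 to 0.766) against 0.805 (0.686 to 0.944) in poor ones. The ratio of both was 0.696, with an interval of 0.486 to 0.991 that barely leaves out 1, and within barcodes of 400 or more UMIs it was 0.806 (0.436 to 1.46). The split also separated markers of other cells. Of the 3 endocrine genes with a row (Resp18, Scg2 and Ptprn) 7 UMIs fell in rich and 154 in poor barcodes, 129 against 635 CPM, with Resp18 and Scg2 at 0 in the rich ones. Few barcodes carried many of these UMIs. Over the barcodes used, the 3 richest held 60 of 74 Resp18 UMIs and 29 of 113 Ptprn UMIs, and 2 barcodes held all 13 of Scg2. The enterocyte genes Vil1 and Alpi together were at 6300 against 3837 CPM. The 4 genes of the stromal list were at 36.7 against 173 CPM, but Myl1 gave both UMIs in rich and 40 of 42 in poor barcodes. Over the barcodes used, 36 of 53 Myl1 UMIs lay in 3 barcodes, so this sum says little about stromal cells. The tuft cell genes Inpp5d and Ptpn18 were at 1837 against 2715 CPM. Of the tuft cell UMIs, 98 of 100 in rich and 615 of 658 in poor barcodes were of Ptpn18. This gene had a UMI in 37.8% of the barcodes used, so the sum does not mark a small set of barcodes. The 6 immune genes with a row were at 404 against 466 CPM, but 20 of their 22 UMIs in rich barcodes were of Il18rap. Without it, 2 immune UMIs fell in rich and 71 in poor barcodes. Cd28, Ctla4 and Icos were at 0 in the rich ones but had only 3, 12 and 4 UMIs in the poor ones, and each interval included 1. Inpp5d, also listed for tuft cells, gave both of the 2 immune UMIs in rich and 43 of the 71 in poor barcodes. With Inpp5d left out too, 0 UMIs fell in rich and 28 in poor barcodes. The 5 proliferation genes Mcm3, Sgol2, Hjurp, Prim2 and Bard1 were together at 1231 against 2385 CPM, a ratio of 0.516 (0.395 to 0.665). Their part in the Casp8 difference was not tested.

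Mcm3 encodes a subunit of the helicase that opens DNA for replication. A Mcm3 UMI was found in 233 barcodes, which were deeper (median 395 UMIs) than the 1155 without (median 273). Here Cflar was lower and Casp8 was not detectably different. Cflar was at 893 CPM from 87 UMIs in barcodes with Mcm3 against 1311 CPM from 449 UMIs without, a ratio of 0.681 (0.535 to 0.859). Casp8 was at 1705 CPM from 166 UMIs against 1539 CPM from 527, a ratio of 1.11 (0.924 to 1.32). A Cflar UMI was seen in 28.8% of barcodes with Mcm3 and 30.4% without, although the former were deeper. With all barcodes thinned to 100 UMIs in a single random draw, these shares were 5.58% (3.00 to 9.35), from 13 UMIs, and 12.5% (10.6 to 14.5). Other draws were not made. The Cflar ratio in that draw was 0.413, against 0.679 with each barcode weighted equally and not thinned.

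Neither gene passed 1.5-fold in this split, where 15 of 239 genes (6.28%) did so upward and 18 (7.53%) downward, with Mcm3 itself left out. Cflar ranked 217 and Casp8 65 of the 239 by ratio, and the median ratio was 0.964. An interval wholly below 1 was found for 46 genes (19.2%), Cflar among them, and an interval wholly above 1 for 27 (11.3%).

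The Cflar level was lower still in barcodes with more Mcm3. It was 1311 CPM (1193 to 1439) with no Mcm3 UMI, 1068 (826 to 1358) in 160 barcodes with 1, and 590.4 (365 to 902) in 73 barcodes with 2 or more, from 21 UMIs. The corresponding Casp8 levels were 1539 (1411 to 1677), 1666 (1360.1 to 2021) and 1771 (1361 to 2266), with intervals that overlap. Barcodes with 2 or more Mcm3 UMIs had a median of 487 UMIs, so depth and Mcm3 count moved together.

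Within depth bins the Cflar difference was uneven. Its ratio was 1.01 (0.360 to 2.30) at 100 to under 200 UMIs, 0.369 (0.133 to 0.824) at 200 to under 300, 0.960 (0.578 to 1.53) at 300 to under 400 and 0.755 (0.537 to 1.05) at 400 or more. Only the interval at 200 to under 300 UMIs left out 1, and there the 42 barcodes with Mcm3 gave 6 Cflar UMIs. Combined over the bins the Cflar ratio was 0.751, without an interval, against 0.681 pooled. The Cflar to Casp8 ratio was 0.524 (0.400 to 0.683) with Mcm3 and 0.852 (0.750 to 0.968) without. The ratio of both was 0.615 (0.455 to 0.828), or 0.701 combined over depth bins, and 0.806 (0.528 to 1.22) among barcodes of 400 or more UMIs alone. The endocrine genes together were lower with Mcm3, at 205 CPM from 20 UMIs against 526 from 180, but few barcodes carried many of these UMIs. Ptprn alone had a ratio of 0.666 (0.379 to 1.11). The stromal list was at 20.5 against 158 CPM, with 51 of its 54 UMIs without Mcm3 from Myl1. The tuft cell genes, mostly through Ptpn18, were at 1725 against 2421 CPM. The 6 immune genes were at 411 against 403 CPM, but 29 of their 40 UMIs with Mcm3 and 69 of 138 without were of Il18rap. With that gene left out, 11 immune UMIs fell in barcodes with Mcm3 and 69 in the others, a ratio of 0.560 (0.267 to 1.07). The enterocyte genes went different ways: Alpi had a ratio of 3.01 (2.33 to 3.90) and Vil1 of 0.872 (0.771 to 0.983). Of the 247 Alpi UMIs, 83 lay in the 3 richest barcodes. The other proliferation genes were higher with Mcm3, with ratios of 3.94 for Sgol2, 1.61 for Hjurp, 3.31 for Prim2 and 4.28 for Bard1. Their part in the Cflar difference was not tested.

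The 2 splits could be crossed. Among the 132 Gsta3-rich barcodes without Mcm3, Casp8 was at 2080.1 CPM (1679 to 2548), and among the 25 with Mcm3 at 2362 (1497 to 3544). Among the 663 Gsta3-poor barcodes without Mcm3 it was at 1445 (1276 to 1630.3), and among the 149 with Mcm3 at 1508 (1212 to 1853). Restricted to barcodes without Mcm3 the Gsta3 ratio of Casp8 was 1.44 (1.12 to 1.83). Cflar was lowest in the Gsta3-poor barcodes with Mcm3, at 771 CPM (564 to 1028), against 1308 (1148 to 1485) in the poor barcodes without, a ratio of 0.589 (0.420 to 0.810). In the Gsta3-rich barcodes it was at 1129 CPM (564 to 2021) with Mcm3, from 11 UMIs, and 1208 (907 to 1576) without.

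**Figure D3:**
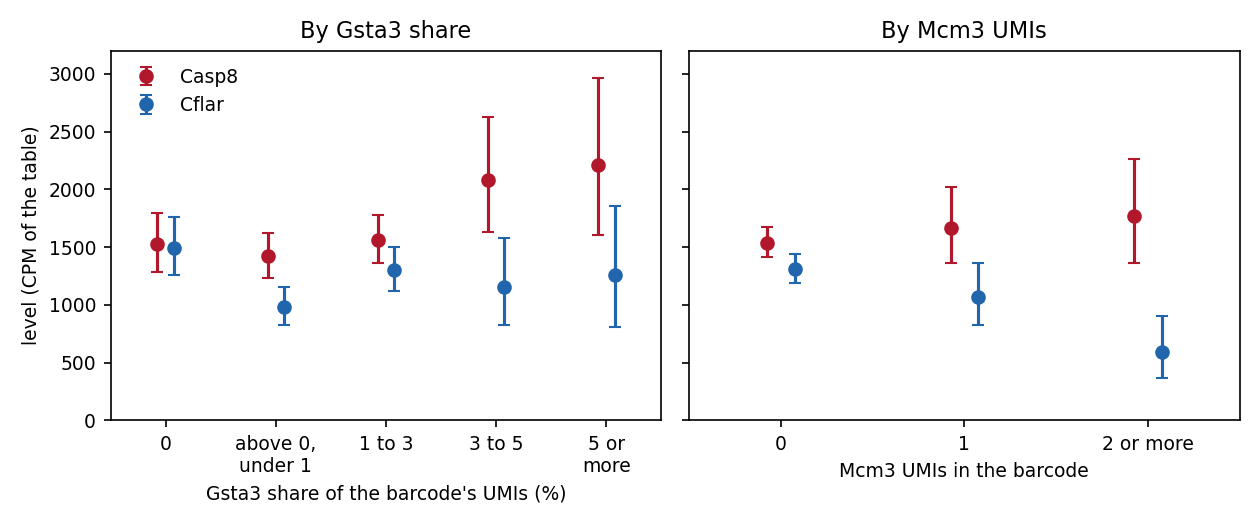
Level of Casp8 (red) and Cflar (blue) in CPM of the table, left by the share of Gsta3 in the barcode's UMIs and right by the number of Mcm3 UMIs. Points are sums over all barcodes of a class and bars are exact 95% Poisson intervals. Casp8 stands at 2085 CPM and above where Gsta3 takes 3% or more, and Cflar at 590.4 CPM where Mcm3 has 2 or more UMIs.

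Casp8 also had intervals off 1 in the divisions by Vil1 and Arl4c. How many other genes had such intervals in these divisions was not counted, so nothing particular to Casp8 is read from them. With Vil1, which encodes the microvillus protein villin, Casp8 was at 1698 CPM in 854 barcodes against 1318 in the 534 without it, a ratio of 1.29 (1.09 to 1.53), and 1.28 combined over depth bins. With the small GTPase gene Arl4c its ratio was 1.21 (1.03 to 1.41). The Cflar ratios in these divisions were 1.00 (0.832 to 1.21) and 1.00 (0.829 to 1.20). No division by a UMI of Sgol2, Inpp5d, Ccl20, Fn1, Alpi, Stk17b or Rdh10 gave an interval off 1 for either gene. Around Inpp5d, with 28 barcodes, the interval of the Casp8 ratio of 1.02 ran from 0.540 to 1.76, so differences of that size could not be seen. In the 143 barcodes with Ccl20, the chemokine gene that NF-kB is known to drive, Cflar had a ratio of 1.16 (0.875 to 1.51).

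Both genes were lower where ribosomal protein transcripts took more of the barcode. Between the third of barcodes richest in Rpl7, Rpl31 and Rpl37a and the third poorest in them, the ratio was 0.576 (0.471 to 0.703) for Casp8 and 0.715 (0.572 to 0.891) for Cflar. These genes fill the total by which levels are divided. With them left out of it, the ratio was 0.742 (0.606 to 0.905) for Casp8 and 0.920 (0.736 to 1.15) for Cflar, so that of Casp8 kept an interval below 1. The share of all genes with an interval off 1 was not taken for this division. Divided in the same way by the Ptma share, with Ptma left out of the total, both intervals included 1. The ribosomal share was 36.2% in Gsta3-rich and 41.8% in Gsta3-poor barcodes, and its part in the Casp8 difference of that split was not tested.

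**Figure D4:**
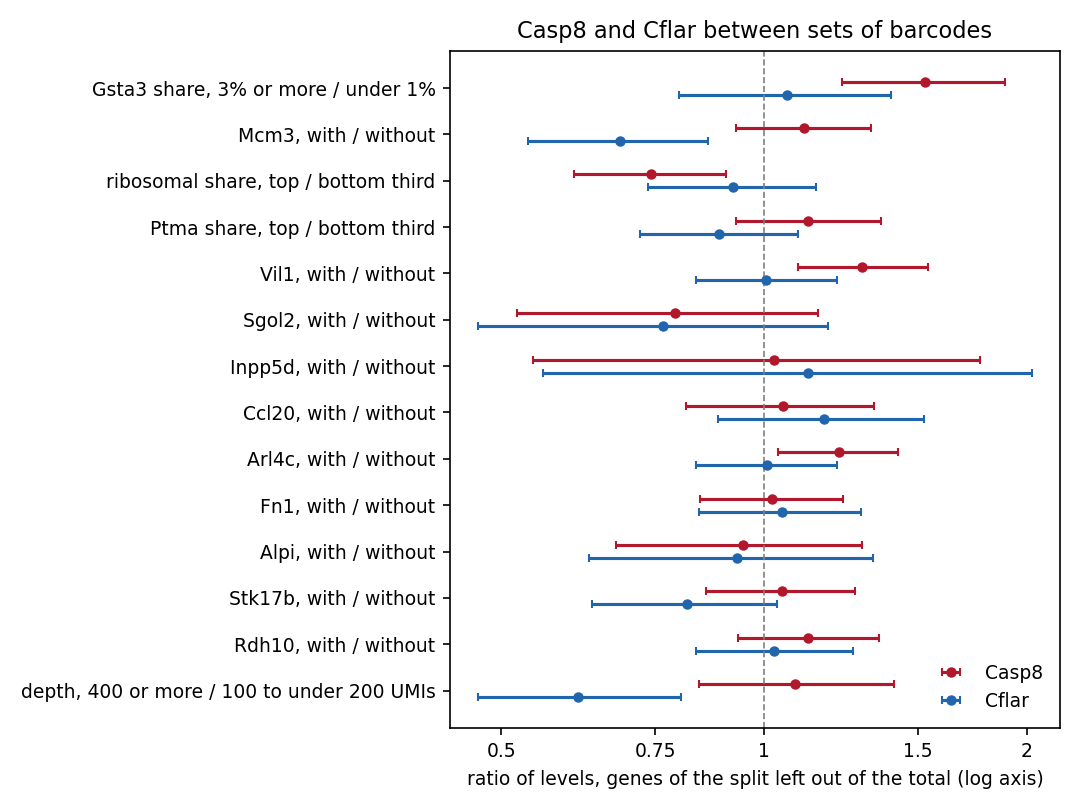
Ratio of the level of Casp8 (red) and Cflar (blue) between sets of barcodes, on a log axis, with the genes that define a split left out of the total. Bars are exact 95% intervals for counting error. Casp8 lies to the right of 1 for Gsta3 (1.53), Vil1 and Arl4c and to the left for the ribosomal share, and Cflar to the left for Mcm3 and for depth.

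Correlations across barcodes were weak for both genes. They were taken over 1388 barcodes between Pearson residuals, the deviations of a count from what the barcode's total and the gene's share give, and all genes share these totals. The pair itself had a correlation of -0.0148. The genes most like Casp8 among 239 were the actin branching complex subunit gene Arpc2 (0.122), Plekhb2 (0.115), the coenzyme Q binding protein gene Coq10b (0.113), the retinol dehydrogenase gene Rdh10 (0.105) and Txndc9 (0.103). Those most like Cflar were Plekhb2 (0.114), Kansl3 (0.0864), the autophagy gene Rb1cc1 (0.0810), Itm2c (0.0809) and Coq10b (0.0791). Plekhb2 and Coq10b were thus in the first 5 of both genes. The lowest values of Casp8 were those of Rpl31 (-0.168), Rpl37a (-0.112) and the elongation factor gene Eef1b2 (-0.0974). Those of Cflar were Hspe1 (-0.110), a mitochondrial chaperonin gene, Eef1b2 (-0.0876) and Hspd1 (-0.0779), the partner of Hspe1. Gsta3 stood at 0.0900 with Casp8 and -0.00174 with Cflar, and Mcm3 at 0.0488 and -0.0771. Values of this size in sparse counts are descriptions and no finding.

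Of 44 listed genes of the death receptor and caspase pathway, 6 had a row, the pair included. The receptors, FADD, the RIP kinases, the executioner caspases and the BCL2 family were not analysed here. Tmbim1, from a family of membrane proteins known to inhibit Fas-driven death, had 2579 UMIs and a ratio of 1.16 (1.04 to 1.31) in Gsta3-rich barcodes and 0.785 (0.709 to 0.868) in barcodes with Mcm3. Stk17b, a kinase of the death-associated family, had 261 UMIs and ratios of 0.701 (0.445 to 1.07) and 1.14 (0.848 to 1.52). The co-chaperone gene Bag2 had 103 UMIs and ratios of 0.465 (0.180 to 1.01) and 1.58 (1.01 to 2.44). Ptpn18, a tyrosine phosphatase gene placed in this list and also among the tuft cell genes above, had ratios of 0.709 (0.567 to 0.879) and 0.743 (0.624 to 0.880).

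Over these 6 genes the median ratio was 0.862 in the Gsta3 split, against 1.00 over all genes tested, and 0.946 in the Mcm3 split, against 0.964. With all genes in the totals, none of the 6 passed 1.5-fold upward in the Gsta3 split and 1 did so downward, beside 6.76% and 9.91% of all genes tested. In the Mcm3 split 1 passed upward and none downward, beside 6.28% and 7.53%. In the Gsta3 split 2 intervals lay above and 1 below 1, beside 14% and 11.7% of all genes. In the Mcm3 split 1 lay above and 3 below, beside 11.3% and 19.2%. With only 6 genes, nothing particular to the list is read from these counts.

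Of 22 listed genes of NF-kB and interferon signalling, 10 had a row and 4 had 50 or more UMIs in each split. Of these, 2 passed 1.5-fold upward in the Gsta3 split, beside 6.76% of all genes tested: Il1r1, which encodes a receptor of interleukin 1, at 2.01 (1.49 to 2.68) and the interleukin 18 receptor subunit gene Il18rap at 2.12 (1.18 to 3.69). Ccl20 had a ratio of 1.02 (0.754 to 1.35) there, and Il18r1, which encodes a subunit of the interleukin 18 receptor, of 0.959 (0.692 to 1.31). None of the 4 passed 1.5-fold in the Mcm3 split, beside 6.28% upward and 7.53% downward of all genes. The median ratio of the 4 was 1.51 in the Gsta3 split, against 1.00 over all genes tested, and 0.925 in the Mcm3 split, against 0.964. The list was written with earlier results of these data known, and with only 4 genes nothing particular to it is read from these values.

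The genes on either side of the pair were looked at in the same way. Of 10 other genes with a row within 250 kb of the pair, 6 had 50 or more UMIs: Nif3l1, the origin recognition subunit gene Orc2, Fam126b, the respiratory complex I subunit gene Ndufb3, Trak2 and Stradb. In the Gsta3 split their ratios ran from 0.625 to 1.16, each with an interval that includes 1. In the Mcm3 split they ran from 0.693 to 1.60, and only that of Orc2, at 1.60 (1.15 to 2.19), had an interval off 1. Their residual correlations with Casp8 and Cflar were 0.0520 for Stradb with Casp8 and -0.0573 for Orc2 with Cflar at the extremes.

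At the limit of 100 UMIs, Casp8 gave 7 UMIs in the 28 barcodes of 80 to under 100 UMIs and 13 in the 34 barcodes of 100 to under 120, or 2740 CPM (1102 to 5645) and 3539 CPM (1885 to 6052). Cflar gave 4 UMIs in each, or 1566 CPM (427 to 4008) and 1089 CPM (297 to 2788). The Cflar to Casp8 ratio was 0.571 (0.123 to 2.25) and 0.308 (0.0731 to 0.996). The latter lay below the 1.08 of the whole bin of 100 to under 200 UMIs. The order of the ratio by depth thus did not hold in these few barcodes.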

How the data were processed

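The members, lists and splits were chosen with earlier results of these data known. A single table from the authors held whole-number counts by gene and barcode, read here as UMI counts. Per the submitters' processing notes, Cell Ranger, Seurat 2.3.0 and mm10 were used, with roles that were not stated. The duplicated barcodes and the unused value columns numbered 0. The row of Asb18 held only 928 values, all 0, and was left out. Barcodes of 100 or more UMIs were kept, and doublets were not removed. Counts were summed per set of barcodes (Python 3.11.15, numpy 2.4.6, scipy 1.17.1). Depth bins were combined by the Mantel-Haenszel formula. Residuals used an overdispersion parameter of 100 and a limit of 10 in size. Genes were compared when they had 50 or more UMIs in both sets together. Named genes were the members, the split genes, list genes with a row, the 5 highest and 3 lowest correlations of each member, and genes within 250 kb. Listed genes under 50 UMIs that are not named enter only the counts and sums of their lists, and 1 listed gene is not reported here. The deep to shallow comparison was added after the levels per bin had been seen. Alternatives covered the barcode filter, denominator, thinning to 100 UMIs, weighting, split limits and depth. Thinning was done in a single random draw, so values after thinning also carry the error of that draw. Tests across the 8 labelled glands need a map from barcodes to samples and were not run.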

Additional observations from a re-analysis of the deposited data

Results flagged for a closer look

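The 72 barcodes under 100 UMIs, which the comparisons leave out, also held both transcripts, each above 595 CPM, the limit for 0 UMIs in these barcodes (3 counts over all of them). Casp8 was at 1983 CPM (951 to 3647) from 10 UMIs in 10 barcodes. Cflar was at 2578 CPM (1373 to 4408) from 13 UMIs in 12 barcodes. Both levels lay above those of the barcodes used, 1576 and 1219 CPM, and the interval of Cflar did not overlap that of its level there.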

How the results depend on the processing

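Of 103 alternative values of the 13 results with an interval, 95 stayed within that of the reported value, 8 left it and 0 turned a direction whose interval lay off 1. Of 12 alternative counts of genes, 8 stayed within 1.5 times the reported count. With Rpl7, Rpl31, Rpl37a, Ptma and Gsta3 left out of the totals, the levels were 3219 CPM for Casp8 and 2489 CPM for Cflar, a change of scale. Thinned to 100 UMIs, Casp8 was at 1441 CPM. Per kb of exon the Cflar to Casp8 ratio was 0.177. The Cflar ratio in the Mcm3 split was 0.450 for 2 or more Mcm3 UMIs against 0, and the ratio of ratios 0.391. In the single thinning draw they were 0.413 and 0.380, and with barcodes weighted equally the Cflar ratio was 0.679. The number of genes past 1.5-fold in the Gsta3 split, 37, was 23 among genes of 100 or more UMIs and 59 among those of 20 or more. In the Mcm3 split it was 33, 19 and 54, since fewer or more genes were compared. The Casp8 ratio in the Gsta3 split ran from 1.32 to 1.54 over 12 alternatives, and 8 of 10 with an interval left out 1. The ratio of ratios there ran from 0.596 to 0.806 and left out 1 in 3 of 8. The Cflar ratio in the Mcm3 split ran from 0.413, the thinned value, to 0.755, leaving out 1 in 9 of 10. The interval that included 1 was that within barcodes of 400 or more UMIs, at 0.755 (0.537 to 1.05). The value combined over depth bins, 0.751, had no interval. The part of depth in this ratio was not tested. The number of UMIs of the covered part of chromosome 1 limits all of these values. No paired analysis was possible because the barcodes carry no sample or replicate number.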
